A study of Mus musculus with 27 samples.

Results

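*Angptl2*, *Angptl4* and *Angptl7* are 3 genes of the angiopoietin-like family, and their RNA level was followed in 27 RNA-seq libraries of immortalized mouse embryonic fibroblasts (iMEFs) that carry a conditional knockout (cKO) of *Setdb1*. The genes were taken as a list that was chosen by measured values: *Angptl7* was listed because it was abundant in untreated cells and fell with trichostatin A (TSA) and with 4-hydroxytamoxifen (4OHT). Its levels in those groups are therefore given as a description with no test, and the same was done for *Angptl2* and *Angptl4*. The 3 genes had a value in every library, among 19894 genes with a value in every total RNA library, 21369 in every siRNA library and 21524 in every inhibitor library. All 3 passed the filter on low values in each experiment, which left 9206, 10572 and 11309 genes.

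All libraries came from iMEFs in which 4OHT induces deletion of *Setdb1*, a histone H3 lysine 9 methyltransferase, and the study's methods describe them as 1 recloned line. The total RNA experiment held 3 libraries each of untreated cells, of cells at day 5 after 4 days of 4OHT (4OHT day 5), and of cells cultured for more than 2 weeks after 4 days of 4OHT (long-term KO). The siRNA experiment held 2 libraries each of siCtrl, siDnmt1, 4OHT + siCtrl and 4OHT + siDnmt1, where siDnmt1 targets the maintenance DNA methyltransferase *Dnmt1* and all cells were harvested at day 6. The inhibitor experiment comprised untreated cells, TSA (a histone deacetylase inhibitor, 150 nM for 24 h), PD0325901 (a MEK inhibitor, 1 µM for 24 h), 4OHT day 6, and 4OHT + PD0325901, in 2 libraries each. Neither the labels nor the methods say that replicates were separate cultures, so p-values measure only the spread between these libraries, which may be technical.

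The targeted gene did not check the labels. *Setdb1* was at 5.16 to 5.95 FPKM in the untreated and 4.16 to 6.52 in the 4OHT day 5 libraries, and at 6.96 to 7.32 in the libraries labelled long-term KO. In the inhibitor experiment *Setdb1* was listed at 0 in 1 library of 4OHT day 6 and in both of 4OHT + PD0325901, while the other 4OHT day 6 library had 5.30 FPKM. These values cover the whole gene, do not report the loss of single exons, and an exact 0 can be a failed estimate, so the groups below are the libraries labelled as such. *Dnmt1* fell with siDnmt1, from 80.5 and 73.4 FPKM to 12.2 and 10.6 (log2 fold change -2.75, limma adjusted p = 0.000160), and in 4OHT cells from 78.7 and 78.3 to 12.2 and 11.4 (-2.72, adjusted p = 0.000155). For PD0325901 replicate 2, a title line in the deposited data names a 4OHT and PD0325901 library while the description names PD0325901, so the tests, list counts and descriptions of the comparisons with PD0325901 alone are also given without it. The depth that the deposited confidence intervals imply was 36.88 to 42.03 M fragments (M stands for mega) per total RNA library, 13.74 to 15.73 M per siRNA library and 10.97 to 12.8 M per inhibitor library. Fibroblast markers were at 1 FPKM or more in every library for all with a value (9 of 9 in total RNA, 11 of 11 in siRNA, 10 of 10 in the inhibitor experiment).

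Angiopoietin-like proteins are secreted glycoproteins with a coiled-coil region and, in most members, a fibrinogen-like domain like that of the angiopoietins, yet they do not bind the Tie receptors. Angptl4 inhibits lipoprotein lipase and is a known target of PPAR nuclear receptors, of hypoxia and of glucocorticoids. Angptl2 acts on integrins and the receptor Pirb in tissue remodelling and inflammation, and Angptl7 is best known as a matrix-associated protein of the cornea and the trabecular meshwork of the eye.

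In the mm9 build used by the authors, *Angptl2* is on the plus strand at chr2:33071589-33103237 with 5 exons, inside intron 8 (chr2:33030069-33115997) of *Ralgps1*, which runs on the minus strand. *Angptl7* is on the minus strand at chr4:147869292-147874569 with 5 exons, inside intron 28 (chr4:147865876-147885879) of *Mtor*, the mTOR kinase gene, which runs on the plus strand. *Angptl4* is on the minus strand at chr17:33910695-33918520 with 7 exons and lies in no other gene. Their coding sequences hold 1479, 1230 and 1011 bases for *Angptl2*, *Angptl4* and *Angptl7*. The counting was not stated to use strand, so reads of *Angptl2* and *Angptl7* cannot be told apart from reads of the intron that contains them.

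The promoters of *Angptl2* and *Angptl7* are shown because the treatments act on DNA methylation and on histones. The set of promoter sequences used had none for *Angptl4*. They are RefSeq sequences of build GRCm38.p6, from 250 bases before to 50 bases after the start, 5′ to 3′ on the strand of the gene, with each CpG in capitals. *Angptl2* is chr2:33215711-33216010 on the plus strand and *Angptl7* is chr4:148500413-148500712 on the minus strand. In mm9 the *Angptl2* sequence lies at chr2:33071231-33071530, which ends before the start of the gene as given above. The *Angptl7* sequence lies at chr4:147874522-147874821 and holds the start given above.
Angptl2: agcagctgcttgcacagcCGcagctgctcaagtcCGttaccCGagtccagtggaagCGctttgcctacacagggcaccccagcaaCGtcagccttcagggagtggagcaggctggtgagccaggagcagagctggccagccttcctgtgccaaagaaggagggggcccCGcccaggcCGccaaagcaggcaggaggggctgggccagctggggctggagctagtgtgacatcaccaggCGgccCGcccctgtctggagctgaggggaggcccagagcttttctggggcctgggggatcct
Angptl7: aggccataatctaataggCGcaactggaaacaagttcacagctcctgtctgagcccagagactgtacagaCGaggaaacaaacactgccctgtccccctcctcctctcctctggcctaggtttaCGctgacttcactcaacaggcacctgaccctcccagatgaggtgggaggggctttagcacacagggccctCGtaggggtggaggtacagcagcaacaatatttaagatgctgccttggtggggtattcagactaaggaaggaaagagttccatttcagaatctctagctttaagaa
The *Angptl2* promoter held 9 CpGs and the *Angptl7* promoter held 4, beside a median of 7 over 32544 promoters of the same length. Fewer CpGs than in *Angptl2* were found in 53.9% of those promoters, and fewer than in *Angptl7* in 31.0%. The letters TATAAA (in 13.6% of promoters), TGANTCA (7.79%), CCGGAA (15.0%) and TGACGTCA (1.80%) were found on neither strand of either sequence. GGGCGG, in 35.9% of promoters on either strand, occurred at 2 positions in *Angptl2* and at 0 in *Angptl7*. A match is only a match of letters, and methylation of these CpGs was not measured in these libraries.

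*Angptl7* was one of the most abundant RNAs of untreated cells. It had 490, 452 and 434 FPKM in the 3 untreated total RNA libraries, which ranked it 103 to 112 from the top of 19894 genes, and 797 and 809 FPKM in the untreated libraries of the inhibitor experiment, where it ranked 88 and 85 of 21524. In the siRNA experiment it was at 209 and 194 FPKM with siCtrl, at rank 319 and 367 of 21369. The tables were normalized separately, so levels are compared only within an experiment. *Angptl2* and *Angptl4* were moderate in the same cells: *Angptl2* had 17.7, 17.4 and 17.2 FPKM in untreated total RNA libraries and *Angptl4* had 12.6, 11.96 and 11.9. FPKM is scaled by transcript length, so within a library *Angptl7* stood far above both on this per-length scale.

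**Figure D1:**
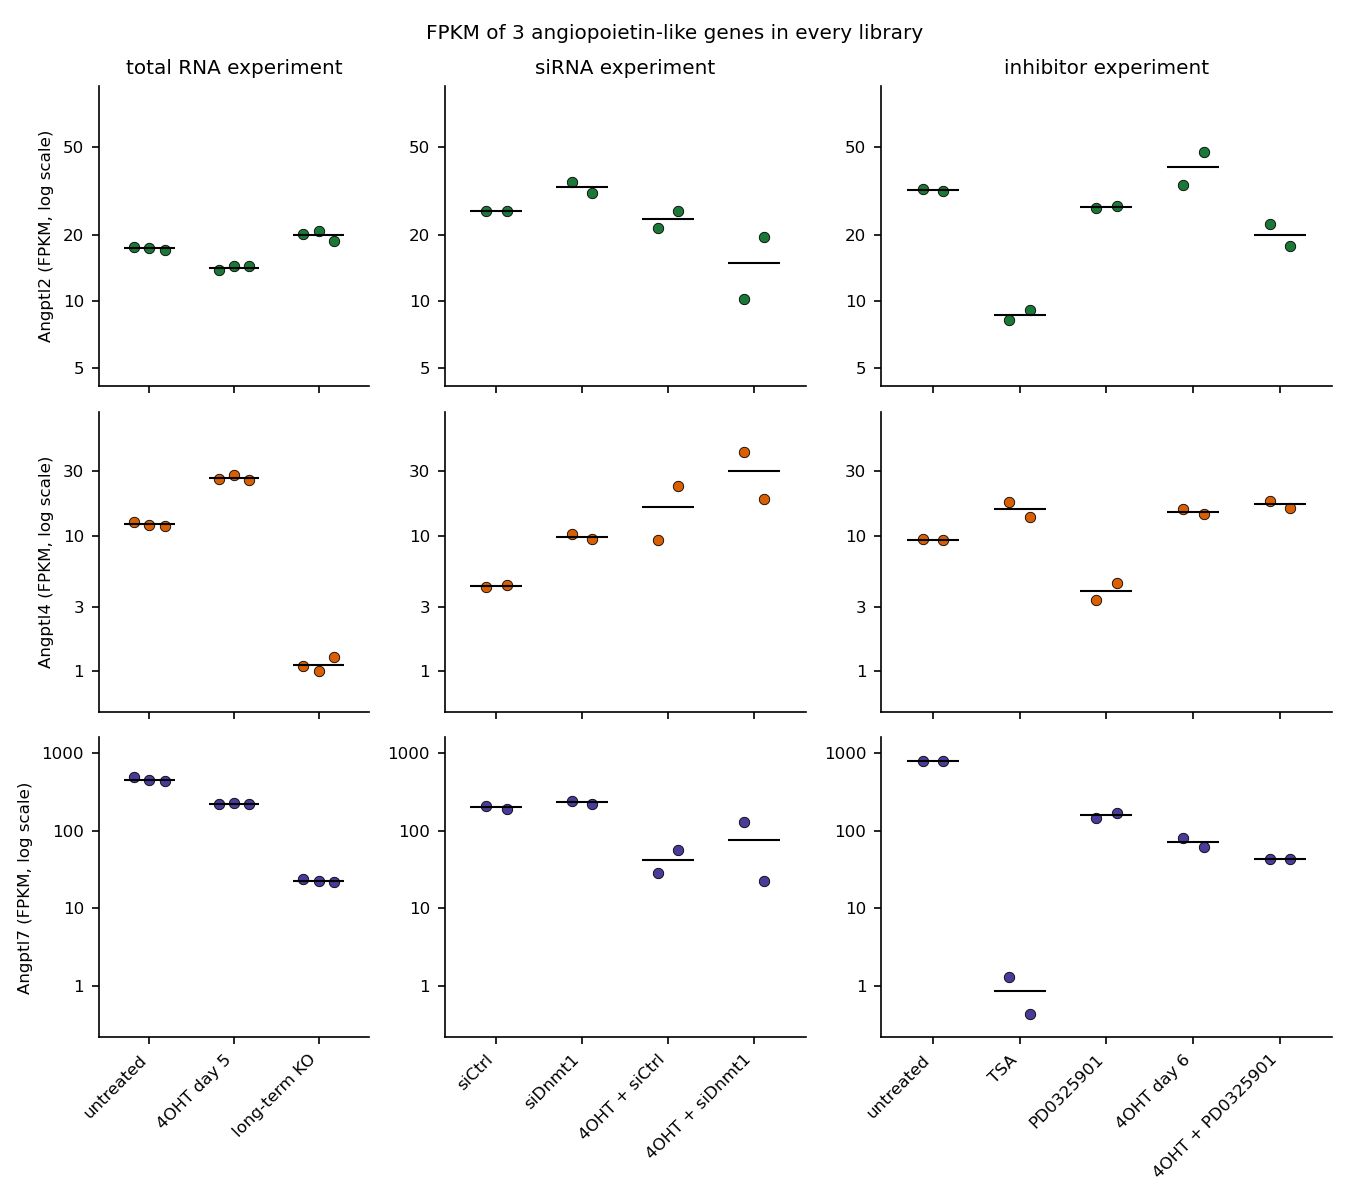
FPKM (log axis) of *Angptl2*, *Angptl4* and *Angptl7* in each library (points) of the 12 groups, with a line at the group mean; columns are the 3 experiments. *Angptl7* fell from 797 and 809 FPKM to 1.29 and 0.430 with TSA, and *Angptl4* was highest at 4OHT day 5 and lowest in long-term KO among the total RNA libraries.

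At day 5 after 4OHT, *Angptl7* had 225, 229 and 219 FPKM, a mean 2.05-fold under untreated. All 3 libraries lay below the lowest untreated one. *Angptl4* went the other way, with 26.4, 28.1 and 25.9 FPKM, a mean 2.2-fold above untreated, and its groups did not overlap. *Angptl2* was slightly lower, with 13.9, 14.4 and 14.4 FPKM, also with no overlap. On the log2(FPKM + 0.1) scale the differences were -1.03 (SE 0.05) for *Angptl7*, 1.13 (SE 0.08) for *Angptl4* and -0.29 (SE 0.04) for *Angptl2*. Groups did not overlap for 49.5% of the 9206 genes, and 3.22% passed an adjusted p under 0.05 with at least a 2-fold change (called in what follows). In bulk RNA, fewer cells with a transcript and less of it per cell cannot be told apart.

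In long-term KO, *Angptl7* was lower still, at 23.7, 22.7 and 21.7 FPKM. The mean, 22.7 ± 1.00 (SD, n = 3), was 20.2-fold under the untreated mean of 459 ± 28.7 (SD, n = 3), and the gene's rank was 2387 to 2593. *Angptl4* had 1.09, 1.01 and 1.27 FPKM, 10.9-fold under untreated, so it lay above untreated at day 5 and below it in long-term culture. *Angptl2* had 20.3, 20.8 and 18.8 FPKM, above every untreated library. The log2 differences from untreated were -4.33 (SE 0.05) for *Angptl7*, -3.33 (SE 0.08) for *Angptl4* and 0.20 (SE 0.04) for *Angptl2*. The groups did not overlap for 72.2% of all genes tested, and 13.9% were called.

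Long-term KO against 4OHT day 5 compares 4OHT-treated groups that share no library and was tested with limma, although the 4OHT levels of both groups entered the choice of the genes. *Angptl4* was lower in long-term KO (log2 fold change -4.47, SE 0.08, adjusted p = 1.35e-08), from a mean of 26.8 to 1.12 FPKM. *Angptl7* was lower as well (-3.30, SE 0.05, adjusted p = 1.05e-08), from 224 to 22.7 FPKM. *Angptl2* was higher (0.49, SE 0.04, adjusted p = 3.01e-05), a difference that passed the test at under 2-fold. Of all genes, 12.5% were called in this comparison (5.87% lower), 64.5% passed the adjusted p alone, and 72.1% had groups with no overlap.

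**Figure D2:**
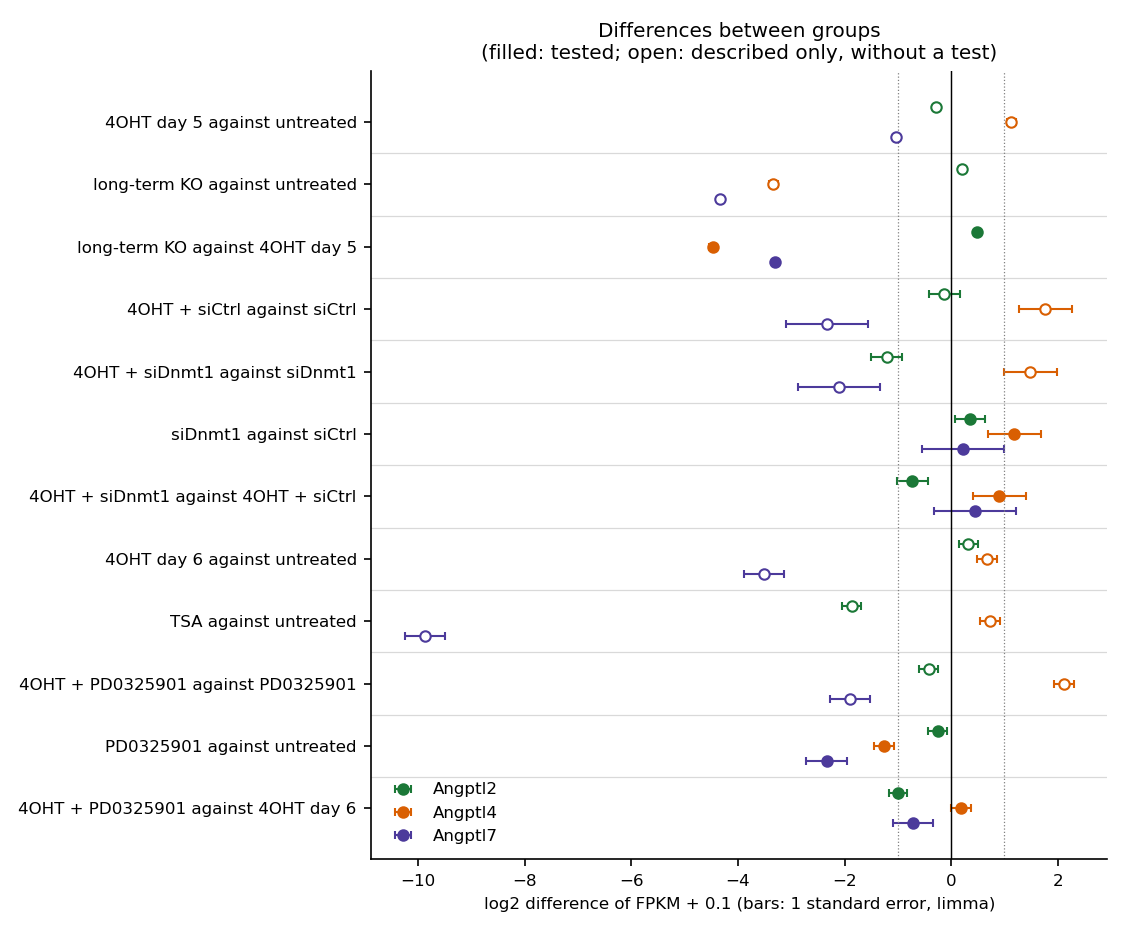
Log2 differences on the log2(FPKM + 0.1) scale with 1 SE for the 3 genes in the 12 comparisons of groups; filled points were tested, open points are descriptions, and dotted lines mark a 2-fold change. Among the open points, the *Angptl7* differences ran from -1.03 to -9.87, while those of *Angptl4* were above 0 except in long-term KO.

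With TSA, *Angptl7* was close to 1 FPKM. It had 1.29 and 0.430 FPKM against 797 and 809 in untreated cells, with deposited intervals of 0.826 to 1.75 and 0.171 to 0.689. The ratio of the means was 936-fold, and the log2(FPKM + 0.1) difference of -9.87 (SE 0.38) understates the change of so low a value. The rank of *Angptl7* went from 88 and 85 to 10464 and 11881. *Angptl2* was also lower with TSA, at 8.25 and 9.15 FPKM against 32.2 and 31.6 (-1.86, SE 0.18), and *Angptl4* was higher, at 17.8 and 13.7 against 9.51 and 9.23 (0.73, SE 0.19). None of the 3 pairs of groups overlapped, but TSA moved much of the transcriptome: 85.3% of genes had no overlap and 32.1% were called.

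In the inhibitor experiment, 4OHT alone gave 80.9 and 61.1 FPKM of *Angptl7* at day 6, 11.3-fold under untreated (-3.51, SE 0.38). *Angptl4* was at 15.7 and 14.5 FPKM, above both untreated libraries (0.68, SE 0.19). *Angptl2* was at 33.6 and 47.4 (0.32, SE 0.18), and the 2 libraries lay further apart than the nearer one lay from untreated. Groups did not overlap for 68.7% of genes, and 11.1% were called.

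PD0325901 lowered *Angptl7* and *Angptl4* in cells without 4OHT. *Angptl7* had 148 and 171 FPKM, 5.04-fold under untreated (log2 fold change -2.34, SE 0.38, adjusted p = 0.00857). *Angptl4* had 3.33 and 4.48 FPKM, 2.40-fold under untreated (-1.25, SE 0.19, adjusted p = 0.00591). *Angptl2* had 26.6 and 27.0 FPKM, below both untreated libraries, and did not pass the test (-0.25, 95% interval -0.66 to 0.16, adjusted p = 0.390). Of all genes, 7.25% were called (4.16% lower) and 64.3% had groups with no overlap. The untreated libraries, where the high *Angptl7* level entered the choice, are the controls here. Without PD0325901 replicate 2 the fold changes were -2.44 for *Angptl7* (adjusted p = 0.0291) and -1.46 for *Angptl4* (adjusted p = 0.00772), and that of *Angptl2* was -0.26 (adjusted p = 0.50). Without PD0325901 replicate 1 the *Angptl7* adjusted p rose to 0.0516, without untreated replicate 1 to 0.0582 and without untreated replicate 2 to 0.0614, and without untreated replicate 1 that of *Angptl4* rose to 0.0510.

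In 4OHT-treated cells the PD0325901 comparison was made gene by gene, with no test between genes. *Angptl2* had 22.3 and 17.8 FPKM with 4OHT + PD0325901, below the 33.6 and 47.4 of 4OHT day 6 (-0.996, SE 0.18, adjusted p = 0.0187), which passed the adjusted p and fell just short of a 2-fold change. *Angptl7* had 42.7 FPKM in both libraries, below both 4OHT day 6 libraries, and did not pass (-0.72, 95% interval -1.60 to 0.17, adjusted p = 0.312). *Angptl4* had 18.1 and 16.1 FPKM (0.18, 95% interval -0.25 to 0.61, adjusted p = 0.616). In this comparison 3.78% of genes were called, 6.94% passed the adjusted p alone and 47.3% had groups with no overlap. The 4OHT day 6 levels entered the choice of the genes and are the controls here, so the test is not independent of the choice.

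The difference between the PD0325901 effects with and without 4OHT was tested directly. The untreated and 4OHT day 6 levels that entered the choice of the genes are part of this difference, so the test is not independent of the choice. It was 1.43 (SE 0.26, adjusted p = 0.0649) for *Angptl4*, 1.62 (SE 0.54, adjusted p = 0.214) for *Angptl7* and -0.74 (SE 0.25, adjusted p = 0.216) for *Angptl2*, and none passed, beside 0.743% of all genes that did. Without PD0325901 replicate 2 it was 1.64 (adjusted p = 0.0403) for *Angptl4*, 1.72 (adjusted p = 0.217) for *Angptl7* and -0.73 (adjusted p = 0.245) for *Angptl2*. Against PD0325901 alone, 4OHT + PD0325901 differed by 2.11 (SE 0.19) for *Angptl4*, -1.89 (SE 0.38) for *Angptl7* and -0.42 (SE 0.18) for *Angptl2* as a description. Without PD0325901 replicate 2 these values were 2.32, -1.79 and -0.41. Groups did not overlap for 50.1% of genes there and 4.45% were called. These comparisons share libraries with each other and are not independent.

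Ordered by level in the inhibitor experiment, *Angptl7* ran from untreated through PD0325901, 4OHT day 6 and 4OHT + PD0325901 to TSA, with no overlap between neighbours. *Angptl2* ran from 4OHT day 6 through untreated, PD0325901 and 4OHT + PD0325901 to TSA, again with no overlap. For *Angptl4* the 4OHT + PD0325901 libraries lay above those of 4OHT day 6, the TSA libraries at 17.8 and 13.7 FPKM overlapped with both groups, untreated lay below them and PD0325901 was lowest.

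The siRNA experiment showed the widest spread between replicates. *Angptl7* was at 28.5 and 56.3 FPKM with 4OHT + siCtrl and at 131 and 22.8 with 4OHT + siDnmt1, so the 4OHT + siDnmt1 replicates lay on both sides of the 4OHT + siCtrl ones. All 4 of these libraries were below the siCtrl libraries at 209 and 194 FPKM and the siDnmt1 libraries at 246 and 224. *Angptl4* was at 4.17 and 4.36 FPKM with siCtrl, 10.3 and 9.48 with siDnmt1, 9.38 and 23.2 with 4OHT + siCtrl, and 41.1 and 18.7 with 4OHT + siDnmt1. Its siCtrl libraries were lowest, and the other 3 groups overlapped each with the next.

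*Angptl2* was at 25.7 FPKM in both siCtrl libraries and at 34.8 and 31.1 with siDnmt1. With 4OHT + siCtrl it was at 21.6 and 25.8 FPKM, around the siCtrl level, and with 4OHT + siDnmt1 it was lowest, at 10.3 and 19.7.

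With siDnmt1 alone, none of the 3 genes passed the test. *Angptl4* was higher in both libraries (log2 fold change 1.19, 95% interval -0.01 to 2.39, adjusted p = 0.197), *Angptl2* likewise (0.36, 95% interval -0.34 to 1.05, adjusted p = 0.488) and *Angptl7* likewise (0.22, 95% interval -1.64 to 2.08, adjusted p = 0.886). Their groups did not overlap, as was the case for 71.8% of genes, while 4.83% were called. When only the siCtrl and siDnmt1 libraries entered the fit, the *Angptl4* difference passed (adjusted p = 0.00243).

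In 4OHT-treated cells siDnmt1 gave -0.73 (95% interval -1.42 to -0.03, adjusted p = 0.241) for *Angptl2*, 0.91 (95% interval -0.30 to 2.11, adjusted p = 0.359) for *Angptl4* and 0.45 (95% interval -1.41 to 2.31, adjusted p = 0.771) for *Angptl7*. None was called, beside 1.46% of all genes, and only the *Angptl2* groups did not overlap, as for 43.7% of genes. Without 4OHT + siDnmt1 replicate 2 the *Angptl2* difference was -1.19 (adjusted p = 0.0423), and without 4OHT + siDnmt1 replicate 1 that of *Angptl7* turned to -0.81. The difference between the siDnmt1 effects with and without 4OHT was -1.08 (SE 0.41, adjusted p = 0.467) for *Angptl2*, -0.28 (SE 0.70, adjusted p = 0.913) for *Angptl4* and 0.23 (SE 1.09, adjusted p = 0.958) for *Angptl7*, where 0.199% of genes passed. The 4OHT levels that entered the choice of the genes are part of this difference and of the comparison in 4OHT-treated cells. Neither test is independent of the choice.

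As a description, 4OHT + siCtrl differed from siCtrl by -2.33 (SE 0.77) for *Angptl7*, 1.77 (SE 0.50) for *Angptl4* and -0.12 (SE 0.29) for *Angptl2*. Groups did not overlap for *Angptl7* and *Angptl4*, nor for 58.9% of genes, and 6.04% were called. 4OHT + siDnmt1 differed from siDnmt1 by -2.10 (SE 0.77) for *Angptl7*, 1.48 (SE 0.50) for *Angptl4* and -1.21 (SE 0.29) for *Angptl2*, none of which overlapped. That held for 71.5% of genes, and 5.69% were called.

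*Mtor*, the gene that contains *Angptl7*, was called in no comparison. It was at 11.0 and 15.9 FPKM in untreated and 14.6 and 10.5 in TSA libraries of the inhibitor experiment (-0.09, adjusted p = 0.789). It lay below both untreated libraries at 4OHT day 6, with 10.1 and 8.45 FPKM (-0.51, adjusted p = 0.198), with PD0325901, at 6.60 and 9.69 (-0.72, adjusted p = 0.118), and with 4OHT + PD0325901, at 6.29 and 6.93. It was also lower with 4OHT + siCtrl, at 10.1 and 11.9 FPKM, than with siCtrl, at 16.8 and 12.6 (-0.41, adjusted p = 0.188). *Mtor* was listed at 0 in 1 untreated total RNA library and at 9.96 and 9.38 FPKM in the others. Next to *Angptl7*, *Exosc10*, which encodes an exosome nuclease, fell with TSA from 65.8 and 66.4 to 13.3 and 12.1 FPKM (-2.37, adjusted p = 1.4e-05). *Ralgps1*, which contains *Angptl2*, rose with TSA from 1.98 and 2.04 to 4.31 and 4.72 FPKM (1.13, adjusted p = 0.00483) while *Angptl2* was lower. Next to *Angptl2*, *Garnl3* rose with TSA (1.77, adjusted p = 0.000802) and *Zbtb34* was not called (0.18). Next to *Angptl4*, *Kank3* rose (2.13, adjusted p = 0.0395) and *Rab11b* was not called (-0.40).

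Other genes of the family were low. Among the others listed, only *Angptl6* passed the filter, while *Angptl1* and *Angptl8* stayed under 1 FPKM in every library. *Angptl6* was at 0.999 and 0.857 FPKM with siCtrl and rose with siDnmt1 to 2.85 and 2.16 (log2 fold change 1.33, SE 0.26, adjusted p = 0.0329). It was listed at 0 in both 4OHT + siCtrl libraries and reached 11.9 and 14.3 FPKM with 4OHT + siDnmt1, above siDnmt1 alone (2.34, adjusted p = 0.0102). With TSA it had 4.69 and 4.96 FPKM against 0.782 and 0.954, which did not pass the test (2.35, SE 1.48, adjusted p = 0.211). In the total RNA libraries *Angptl6* ranged from 0.788 to 2.97 FPKM. Among the angiopoietins and Tie receptors, none of the 5 genes was called in any comparison, with at most 2 of the 5 tested in an experiment.

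**Figure D3:**
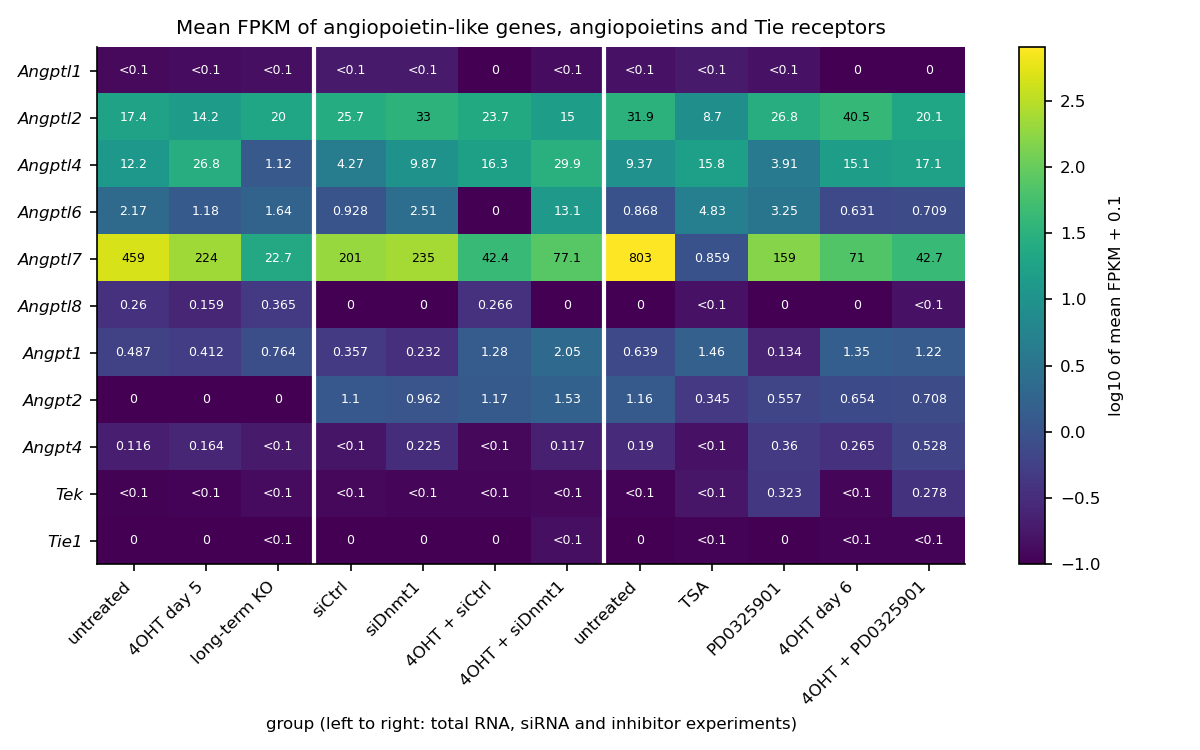
Heat map of mean FPKM (colour on a log scale, value printed in each cell) of angiopoietin-like and angiopoietin genes and Tie receptors in the 12 groups. *Angptl7*, *Angptl2* and *Angptl4* have the highest means in untreated and siCtrl cells, and *Angptl6* stands out with 4OHT + siDnmt1, where its libraries had 11.9 and 14.3 FPKM.

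The share of all genes called, beside which the counts of the next lists are to be read, was 32.1% with TSA, 7.25% with PD0325901, 11.1% at 4OHT day 6, 3.22% at day 5, 12.5% for long-term KO against day 5, 4.83% with siDnmt1 and 6.04% with 4OHT + siCtrl. It was 5.69% for 4OHT + siDnmt1 against siDnmt1. The counts with TSA of the receptor, lipase and PPAR lists were near that share. Of 8 reported receptors and binding partners of these proteins, 6 were tested in the inhibitor experiment, and with TSA 2 rose and 0 fell, with a median log2 fold change of 0.72 beside 0.10 for all genes. These were *Itgb3*, an integrin subunit, from 0.139 and 0.209 to 3.80 and 4.85 FPKM (4.01), and *Sdc4*, a heparan sulfate proteoglycan (1.28). With PD0325901 only *Itga5*, which encodes the integrin alpha 5 subunit, was called (1.06), and without PD0325901 replicate 2 it was not. *Cdh11*, a mesenchymal cadherin gene, fell at day 5 (-1.26) and was higher in long-term KO than at day 5 (2.83), from 3.34, 3.82 and 3.49 to 26.4, 27.1 and 24.2 FPKM. No listed receptor was called in the siRNA experiment or with 4OHT in the inhibitor experiment.

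Among 16 genes of lipases and lipoprotein uptake, the field in which *Angptl4* acts, TSA raised 2 and lowered 3 of the 12 tested (median -0.40 beside 0.10). *Lpl*, the lipase that *Angptl4* inhibits, rose from 0.129 and 0.122 to 6.74 and 5.82 FPKM (4.82). Those that fell included *Lipg*, the endothelial lipase gene (-1.36), and *Furin*, a protease that cleaves angiopoietin-like proteins (-1.02). *Pcsk7* counted as called from libraries listed at 0, so no fold is given. At day 5 after 4OHT, 1 of 8 rose and 1 fell: *Lipg* went from 10.7, 10.7 and 10.3 to 36.1, 37.1 and 35.4 FPKM (1.76), and *Vldlr*, the VLDL receptor gene, fell (-2.07). In long-term KO *Lipg* was at 12.7, 12.6 and 12.7 FPKM, lower than at day 5 (-1.50). With PD0325901 *Lipg* (-1.75) and *Apoe* (-1.10) fell and *Pcsk6*, a proprotein convertase gene, rose (2.97), also without PD0325901 replicate 2.

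Of 20 PPAR pathway genes, 1 of 16 tested rose and 1 fell with PD0325901, with or without its replicate 2: *Pparg*, an adipogenic nuclear receptor (2.40), and *Cpt1a*, a mitochondrial fatty acid importer (-1.04). With TSA 3 rose and 2 fell (median 0.61 beside 0.10), led by *Pdk4*, a kinase of pyruvate dehydrogenase (4.07), and by *Rxra*, the partner receptor of the PPARs (-1.84). In long-term KO against 4OHT day 5, where *Angptl4* fell, 1 of 13 was called and it was higher, namely *Rxra* (1.10). At 4OHT day 6, 2 of 16 rose, *Pparg* (2.14) and *Pdk4* (1.50), and 2 fell, *Fabp4* and *Cpt1a* (-1.35). *Fabp4*, a fatty acid binding protein gene, was lower at day 5 (-2.41), in long-term KO (-2.75) and at day 6 (-4.36), all against untreated.

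Of 23 hypoxia response genes, PD0325901 lowered 5 of 21 tested and raised 0 (median -0.64 beside -0.07 for all genes; 4 without PD0325901 replicate 2), where 4.16% of all genes were called lower. *Angptl4* fell in the same comparison. Those with the largest change were *Bhlhe40*, a transcriptional repressor (-2.62), *Bnip3*, a mitophagy receptor (-2.05), *Pdk1* (-1.87) and *Egln3*, an oxygen-sensing hydroxylase (-1.12). At 4OHT day 6, 7 fell and 0 rose (median -0.63 beside 0.00), led by *Adm*, the adrenomedullin gene (-3.57), while *Angptl4* was above untreated. At day 5, 3 of 20 fell and 0 rose (median -0.40), namely *Adm* (-2.23), *Ddit4* (-1.62) and *Vegfa* (-1.18). Long-term KO against day 5 gave 2 higher and 2 lower. With siDnmt1, *Ero1l* (1.33) and *Bhlhe40* (1.31) rose and 0 fell (median 0.34 beside -0.09). With TSA, 4 of 21 rose and 6 fell (median -0.84 beside 0.10), among them *Ldha*, a lactate dehydrogenase gene (-2.11), *Adm* (-1.76) and *P4ha1*, a collagen prolyl hydroxylase gene (-1.69), which fell, and *Ndrg1* (1.58), which rose.

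Of 12 glucocorticoid response genes, 4 of 10 tested were lower and 0 higher in long-term KO than at day 5 (median -0.40 beside 0.04), where 5.87% of all genes were called lower. They included *Errfi1*, a feedback inhibitor of EGF receptor signalling (-2.84), the metallothionein gene *Mt2* (-1.49) and the kinase gene *Sgk1* (-1.16), and *Cebpd* was listed at 0 in all long-term KO libraries. With PD0325901 3 fell and 0 rose (median -0.33 beside -0.07): *Errfi1* (-4.36), *Mt1* (-3.21) and *Mt2* (-2.84), also without PD0325901 replicate 2 (*Mt1* -4.16). At day 5, where *Angptl4* was above untreated, 1 of 10 rose, *Mt2* (1.13), and 2 fell, *Errfi1* (-1.30) and *Tsc22d3* (-1.05). With TSA 2 of 11 rose, *Mt2* (2.03) and *Errfi1* (1.33), and 0 fell. *Errfi1* was the only member called with siDnmt1 (1.67) and at 4OHT day 6 (-1.03).

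Genes listed for the corneal stroma and trabecular meshwork, where *Angptl7* is best known, were counted as well. With 4OHT + siCtrl, all 4 tested of the 10 listed were called lower than with siCtrl (median -3.42 beside 0.08). They were the small leucine-rich proteoglycan genes *Dcn* (-5.05), *Lum* (-3.46; listed at 0 in both 4OHT + siCtrl libraries) and *Ogn* (-3.38), and *Mgp*, a calcification inhibitor (-3.28), and collagen genes among the fibroblast markers fell in the same comparison (*Col3a1* -2.78, *Col1a1* -1.63, *Col1a2* -1.56). With TSA, *Mgp* went from 589 and 607 to 4.08 and 5.38 FPKM (-6.96) and *Ogn* fell too (-7.17; listed at 0 in 1 of the TSA libraries), with 0 of 3 higher. With 4OHT + siDnmt1 against siDnmt1, 3 of 4 fell and 0 rose, and at 4OHT day 6, 2 of 3 fell (*Mgp* -4.82, *Dcn* -2.84) and 0 rose. PD0325901 lowered *Mgp* (-4.52) and raised *Dcn* (2.74), also without its replicate 2 (*Mgp* -6.08). At 4OHT day 5, 1 of 4 rose, *Ptgds* (3.04), and 2 fell, *Dcn* (-1.58) and *Ogn* (-1.32). Long-term KO against day 5 gave 2 higher and 1 lower of 4. There *Ogn* was at 220, 198 and 234 FPKM against 8.55, 9.71 and 9.46 at day 5 (4.54), *Dcn* was higher (1.76) and *Ptgds* was lower (-2.85). Of 13 genes of other fibrinogen-like proteins, 2 were tested in the total RNA and siRNA experiments and 4 in the inhibitor experiment. *Mfap4* fell at day 5 (-1.36), at day 6 (-2.77), with TSA (-4.56), with siDnmt1 (-3.70) and with 4OHT + siCtrl (-4.13). It was higher in long-term KO than at day 5 (2.00). *Tnc* rose at day 6 (1.38) and *Fgl2* with TSA (2.12), so each comparison gave 1 higher and 1 lower of 4. With PD0325901 2 of 4 rose and 0 fell, also without its replicate 2. These were *Tnc* (1.93) and *Tnn*, from under 0.1 FPKM in both untreated libraries to 10.3 and 12.5 FPKM (6.58). The gene lists were drawn up with earlier results of these data known, and their counts share control libraries.

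Fibroblast markers moved with the treatments as well. TSA lowered 6 and raised 2 of 10 tested (median -1.30 beside 0.10 for all genes). 4OHT day 6 lowered 5 of 10 and raised 0 (-0.98 beside 0.00). 4OHT + siCtrl lowered 4 of 11 and raised 0 (-0.86 beside 0.08), and 4OHT + siDnmt1 against siDnmt1 lowered 5 of 11 and raised 0 (-1.11 beside 0.14). With siDnmt1 alone 1 of 11 fell and 1 rose (-0.86 beside -0.09). PD0325901 raised 2 of 10 and lowered 0 (0.42 beside -0.07), with the same counts without its replicate 2. Long-term KO against day 5 raised 3 of 9 and lowered 0 (0.89 beside 0.04). The collagen gene *Col3a1* differed from untreated by -3.76 at 4OHT day 6 and by -3.57 with TSA.

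Markers of other cell types moved with some groups. The summed FPKM of 5 epithelial markers was 6.68 to 7.25 in untreated and 130 to 145 in TSA libraries, and 8.53 to 9.71 with siCtrl against 86.0 to 86.2 with siDnmt1, 16.5 to 83.8 with 4OHT + siCtrl and 125 to 158 with 4OHT + siDnmt1. *Krt19* made up most of it with TSA, at 98.8 and 112 FPKM. The epithelial sum was also above untreated with PD0325901 (26.4 to 62.9) and with 4OHT + PD0325901 (59.2 to 81.98). In each of these groups only 1 of the 5 markers reached 1 FPKM in every library, and 4 stayed under it. With PD0325901 *Krt8* and *Krt18* were at 0. Of 3 tested there, 1 rose and 1 fell (median -0.72 beside -0.07 for all genes). Without PD0325901 replicate 2, 1 rose and 0 fell. At 4OHT day 6 both libraries were above untreated, and the higher had 45.1. In the total RNA libraries the sum was 3.29 to 3.60 in untreated and 9.27 to 10.9 at 4OHT day 5. Long-term KO had 6.85 to 7.53. The 6 haematopoietic markers with a value summed to 5.60 to 6.06 FPKM in untreated and 62.2 to 68.0 in TSA libraries, nearly all from *Cd68*, while *Adgre1* was at 0 and *Ptprc* stayed under 1 FPKM. Endothelial markers summed to 0.129 to 0.211 FPKM in untreated and 2.04 to 2.25 in TSA libraries, where *Cdh5*, *Emcn* and *Cldn5* were at 0, and *Kdr* rose with TSA (3.67), at 4OHT day 6 (2.34) and with PD0325901 (2.01; 2.04 without its replicate 2). Adipocyte markers fell from 7.20 to 13.0 in untreated to 0.164 to 0.754 at 4OHT day 6, and were *Fabp4* almost alone, with *Adipoq*, *Plin1* and *Lep* at 0. The part of these and of the fibroblast markers in the Angptl values was not tested.

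Genes with the most similar pattern were ranked by Pearson's r of log2(FPKM + 0.1) over the 18 siRNA and inhibitor libraries, with each experiment centred on its mean, among 10126 genes. The libraries share groups and depth, so r is a description with no p. Among the genes most like *Angptl7* were *Nedd4*, a ubiquitin ligase gene (r = 0.948), and *Arsb*, a lysosomal sulfatase gene (0.942). *Nedd4* went from 463 and 465 FPKM in untreated to 105 and 79.5 in TSA libraries. In the total RNA experiment, which the ranking did not use, these genes did not go down with *Angptl7*: *Nedd4* was at 340, 353 and 323 FPKM in untreated and 349, 360 and 361 in long-term KO, and *Arsb* at 5.93, 5.90 and 5.37 against 8.89, 9.38 and 9.14.

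*Angptl2* was most like *St3gal4*, a sialyltransferase gene (r = 0.922), *Ddx3x*, an RNA helicase gene (0.890), and *Fasn*, the fatty acid synthase gene (0.884), which went from 46.6 and 51.3 to 8.45 and 8.15 FPKM with TSA. In the total RNA experiment *Ddx3x* had 127, 129 and 120 FPKM in untreated and 84.2, 84.0 and 84.1 in long-term KO, where *Angptl2* was higher. *Fasn* had 54.3, 53.8 and 54.1 against 55.2, 58.0 and 60.4, and the *St3gal4* groups overlapped. *Angptl4* was most like *Blnk*, a signalling adaptor gene best known in B cells (0.923), *Tcirg1*, a proton pump subunit gene (0.900), and *Endod1* (0.892). *Blnk* was at 0.774 and 0.518 FPKM with siCtrl, 5.54 and 5.73 with siDnmt1, 2.21 and 17.7 with 4OHT + siCtrl and 19.0 and 9.74 with 4OHT + siDnmt1, the same order of replicates as *Angptl4* within the last 2 groups. In the total RNA experiment *Blnk* had 0.272, 0.291 and 0.352 FPKM in untreated and 1.04, 1.26 and 1.31 at day 5. It had 0.462, 0.434 and 0.333 in long-term KO, where *Angptl4* was lower than untreated. *Tcirg1* had 19.9, 18.5 and 17.1 in untreated, 32.4, 32.5 and 37.3 at day 5 and 23.3, 25.4 and 126 in long-term KO. Among the 3 genes, r was 0.744 for *Angptl2* with *Angptl7*, -0.414 for *Angptl2* with *Angptl4* and -0.385 for *Angptl4* with *Angptl7*. The values with *Angptl7* also depend on its very low level in the TSA libraries.

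**Figure D4:**
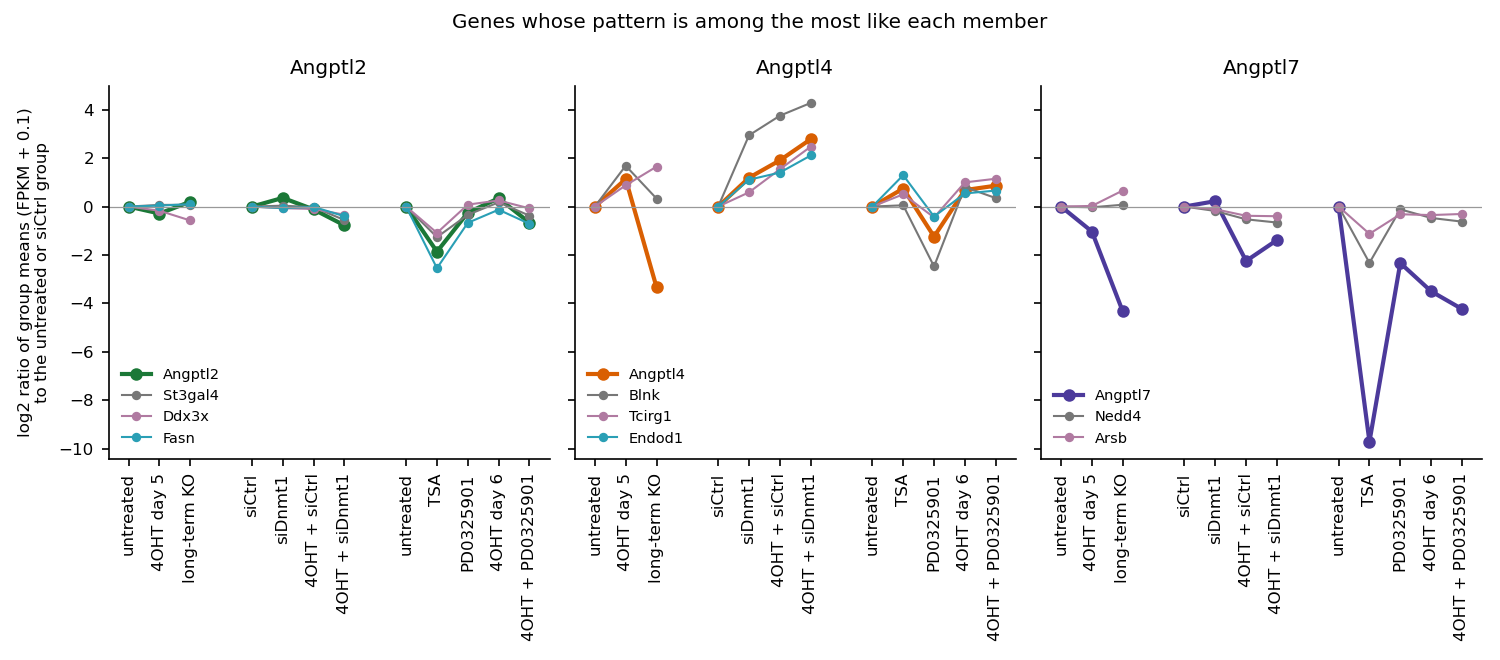
Log2 ratio of each group's mean to untreated or siCtrl for *Angptl2*, *Angptl4* and *Angptl7* and, for each, 2 or 3 of the genes with the most similar pattern over the siRNA and inhibitor libraries. In the total RNA groups, not used for the ranking, *Angptl7* fell to a mean of 22.7 FPKM in long-term KO while *Nedd4* and *Arsb* did not.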

How the data were processed

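RNA-seq of 27 libraries was analysed from the FPKM values that the authors deposited. Per the labels and methods, reads were aligned to mm9 with TopHat2 2.0.12, keeping 1 position for reads with several, and FPKM per gene were computed with Cufflinks. The siRNA and inhibitor tables name genes. The total RNA tables give loci, and a gene took the value of the locus that covered at least 95% of it. The authors' own comparisons, with fold changes and p-values, were not used. Log2(FPKM + 0.1) values were fitted with limma 3.58.1 in R 4.3.3 (all groups of an experiment in 1 fit, trended variances, two-sided, Benjamini-Hochberg over all genes tested). Genes were kept where the number of libraries at 1 FPKM or more reached the size of the smallest group, and called means adjusted p under 0.05 and at least 2-fold (for differences of effects, adjusted p alone). On this scale the fold of low genes is understated. Counts per gene were not used here, so intervals cover the spread between libraries. Summaries used Python 3.11.15, pandas 2.3.3 and numpy 2.4.6. The procedure was tested on simulated data. Alternatives were another pseudocount, filter, scaling, variance model, locus cover, set of groups in the fit, replicate block and each replicate left out. List counts without PD0325901 replicate 2 were added after seeing the data. Genes named are the 3 genes, those that contain or flank them, their families, the 3 with the most similar pattern each, both targets, and up to 4 called members per list with the largest change; epithelial and haematopoietic markers and the per-library values of list genes were picked after their values were seen. Some genes that this rule names are not reported here. The genes and lists were chosen with earlier results of these data known.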

Additional observations from a re-analysis of the deposited data

Results flagged for a closer look

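The effects of 4OHT at day 5 and in long-term culture, both against the same untreated total RNA libraries, differed for all 3 genes in the limma test of long-term KO against 4OHT day 5. In that test 64.5% of all genes passed the adjusted p alone and 12.5% were called, and the *Angptl2* difference was under 2-fold. The difference was 0.49 on the log2 scale for *Angptl2*, which lay below untreated at day 5 and above it in long-term KO. It was -4.47 for *Angptl4*, which lay above untreated at day 5 and below it in long-term KO. It was -3.30 for *Angptl7*, which lay below untreated at both times. The 4OHT levels of these groups entered the choice of the genes, so the test is not independent of that choice.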

How the results depend on the processing

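Of 306 recomputed values of tested differences, 288 kept their direction and their side of the threshold. Outside the fits that left out a library, 188 of 192 did. With only the groups of the comparison in the fit, siDnmt1 against siCtrl passed for *Angptl4* (1.19, adjusted p = 0.00243) and the difference of the PD0325901 effects passed for *Angptl7* (1.62, adjusted p = 0.0385), although it contains the untreated and 4OHT levels by which the gene was chosen. For *Angptl2* with 4OHT + PD0325901 against 4OHT day 6, quantile normalization gave -1.03 and median-ratio scaling gave -1.05, both past 2-fold. With 1 library left out at a time, PD0325901 against untreated ranged from -1.46 to -1.05 for *Angptl4* and from -2.44 to -2.23 for *Angptl7*, 4OHT + PD0325901 against 4OHT day 6 from -1.24 to -0.75 for *Angptl2*, and the difference of the PD0325901 effects from 1.23 to 1.64 for *Angptl4*. For 4OHT + siDnmt1 against 4OHT + siCtrl the range was -1.19 to -0.26 for *Angptl2* and -0.81 to 1.71 for *Angptl7*, whose sign turned without 4OHT + siCtrl replicate 1 (-0.04) and without 4OHT + siDnmt1 replicate 1 (-0.81). The difference of the siDnmt1 effects ranged from -0.93 to 0.37 for *Angptl4* (0.37 without 4OHT + siCtrl replicate 2, 0.28 without 4OHT + siDnmt1 replicate 2) and from -1.03 to 1.49 for *Angptl7* (-0.26 without 4OHT + siCtrl replicate 1, -1.03 without 4OHT + siDnmt1 replicate 1). The cause was not tested. A fit with 1 library in a group assumes that it varies like the others. Of 291 described values 272 stayed within the spread of replicates, and *Angptl2* with 4OHT + siCtrl turned sign without 4OHT + siCtrl replicate 1 (0.0033); *Angptl7* with TSA was -8.80 at a pseudocount of 1, -10.90 after quantile normalization and -10.57 and -9.18 without TSA replicate 1 and 2. Replicate numbers were not taken to pair the libraries: same-numbered libraries correlated at -0.0569 to 0.123, -0.0675 to 0.0154 and -0.0261 to 0.259 in the 3 experiments, with 0.206 to 0.259 among PD0325901, 4OHT day 6 and 4OHT + PD0325901. The fit with a replicate block changed no call of the 3 genes (*Angptl4*, PD0325901 against untreated, adjusted p = 0.00875), and moved the genes called for 4OHT + siDnmt1 against 4OHT + siCtrl from 154 to 78. Counts of called genes moved by over 1.5 times with only the compared groups in the fit (siDnmt1 511 to 868, 4OHT + siCtrl 639 to 180, 4OHT + siDnmt1 against 4OHT + siCtrl 154 to 29, 4OHT + PD0325901 against PD0325901 503 to 267 and against 4OHT day 6 427 to 101), with no filter (4OHT day 5 296 to 458, 4OHT + siCtrl 639 to 348, 4OHT + siDnmt1 against siDnmt1 602 to 346, PD0325901 820 to 534, 4OHT + PD0325901 503 to 316 and 427 to 267) and with a filter of 5 FPKM (4OHT day 5 296 to 184, long-term KO 1277 to 802 and 1153 to 712, siDnmt1 511 to 289, 4OHT + siDnmt1 602 to 390 and 154 to 78). Scaling moved the higher share for 4OHT + siDnmt1 against siDnmt1 from 361 of 602 to 200 of 530 with quantile and 208 of 529 with median-ratio scaling, where the median over all genes went from 0.14 to -0.02, and for 4OHT + PD0325901 against PD0325901 from 352 of 503 to 270 of 460 with quantile normalization. With 1 library left out, called genes ranged from 73 to 106 for siDnmt1, 82 (without siCtrl replicate 2) to 1108 (without 4OHT + siCtrl replicate 1) for 4OHT + siCtrl, 48 to 390 for 4OHT + siDnmt1 against siDnmt1, 69 to 861 (without 4OHT + siCtrl replicate 1) against 4OHT + siCtrl, 658 to 1106 for 4OHT day 6, 335 to 864 for PD0325901, 263 to 509 and 273 to 402 for 4OHT + PD0325901, and 11 to 708 and 32 to 180 for the differences of effects (main 21 and 84). TSA (2506 to 3321 against 3628) and the total RNA comparisons stayed within 1.5 times.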
